A study of Arabidopsis thaliana with 12 samples.

Results

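AS2, PHV and AGO7 are genes that promote the adaxial, or upper, side of the developing leaf of Arabidopsis thaliana. They were found by locus, AT1G65620 for AS2, AT1G30490 for PHV and AT1G69440 for AGO7, all on chromosome 1. Each was read by 1 probe set (264626_at, 261800_at and 256293_at in that order), so that 3 of the 22596 loci tested are described here. Every plant had the genotype 35S::WUS-GR; ap1-1;cal1-1 and was 28 days old. WUS-GR is the stem cell factor WUSCHEL (WUS) fused to the hormone-binding part of the rat glucocorticoid receptor, which keeps the protein out of the nucleus until dexamethasone (Dex) is given, and the 35S promoter drives it in nearly all cells rather than in the organizing centre where WUS is normally made. The ap1-1;cal1-1 mutations, carried by the controls too, turn flowers into clusters of shoot apical meristems (SAMs). SAMs received a mock solution, 10 µM Dex, 10 µM cycloheximide (Cyc), which blocks protein synthesis, or both agents together (Dex+Cyc), each for 4 h. Each of these 4 groups had 3 ATH1 arrays, 12 in all. The methods describe RNA from SAMs of 30 to 35 plants per treatment, and the labels number the replicates without saying that they came from separate plants, so that the spread behind each p-value is that of these arrays and may be technical. No array of Dex-treated plants without the transgene was analysed here, and the probe set of WUS itself was not analysed here.

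Leaves arise at the flanks of the SAM, in the peripheral zone, and soon acquire an adaxial side, which faces the meristem, and an abaxial side, which faces away from it. AS2 encodes a nuclear protein of the AS2/LOB domain family that acts with the MYB protein AS1 to keep class I KNOX meristem genes and abaxial genes off in leaves. PHV (PHAVOLUTA) encodes a transcription factor of the HD-ZIP III class, which specifies adaxial fate and whose mRNA is cut in abaxial cells under the guidance of the microRNAs miR165 and miR166. AGO7 (also called ZIPPY) encodes an ARGONAUTE protein that binds miR390 and so starts production of the small RNAs that restrict the abaxial factors ARF3 and ARF4.

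The study designed short DNA duplexes from the AS2 locus, and they are shown because TAAT is the core that homeodomain proteins such as WUS recognise. The duplexes carry the study's own names, AS2 750 and AS2 -480, after their place relative to the start of transcription. Both wild-type oligonucleotides were 28 bases long, and capitals mark TAAT, which was found 2 times on the printed strand of each and, read as ATTA, 0 times on the other strand:
AS2 750: ccaatatcttTAATactacTAATtgcaa
AS2 -480: aacgtTAATcatcaTAATttctataacc
In the mutant versions, capitals mark the changed bases, numbered from 1 at the 5′ end:
M8: ccaatatctttaatactactGGttgcaa
M9: ccaatatctttGGtactactGGttgcaa
M6: aacgttGGtcatcataatttctataacc
M7: aacgttGGtcatcatGGGttctataacc
M8 differs from AS2 750 by A21G and A22G and keeps 1 TAAT, while M9 adds A12G and A13G and keeps 0. M6 differs from AS2 -480 by A7G and A8G and keeps 1 TAAT, while M7 adds A16G, A17G and T18G and keeps 0. The paper reports that recombinant WUS bound AS2 duplexes in gel shift assays and that TAAT mutations abolished binding. Where a duplex held more than 1 TAAT, it reports that only certain elements were needed. The arrays measured transcript level and not protein binding, and how often so short a motif occurs in other promoters was not analysed here.

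Signals were MAS5 values on a linear scale with every array brought to the same trimmed mean of 500, and differences below are log2 fold changes from limma over all 22596 loci, with Benjamini-Hochberg adjusted p. A gene was called changed at adjusted p under 0.01 and at least 2-fold, and a looser threshold of adjusted p under 0.05 is named where it is used. The median signal of an array lay between 214 and 236, and log2 signals correlated across probe sets at 0.938 to 0.949 within groups and at 0.852 to 0.946 between them. CLV3, the stem cell peptide gene known to be activated by WUS, rose by a log2 fold change of 3.48 (SE 0.40, adjusted p = 0.00234) under Dex and by 2.53 (adjusted p = 0.0214, at the looser threshold) under Dex with Cyc. Of the meristem markers listed, UFO and KNAT1 could also be read, and both fell at the looser threshold without and with Cyc. The log2 fold changes of UFO were -0.99 and -1.21 (adjusted p = 0.0422 and 0.0406), near that threshold. Those of KNAT1 were -1.77 and -1.59 (adjusted p = 0.00236 and 0.0121). Of all loci, 3.13% were lower at this threshold without Cyc and 0.965% with it. Leaf mesophyll, epidermis and root markers were not analysed here, 1 of 3 guard cell markers (FAMA) and 1 of 4 vascular markers (IRX3) were read, and neither passed the looser threshold in a Dex comparison.

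The 3 genes differed in brightness. PHV was a bright probe set, with 76.0% to 88.7% of probe sets dimmer on each array, AGO7 was of middle brightness at 36.3% to 61.3%, and AS2 was dim at 19.5% to 43.1%. The spread of replicates followed this order on the log2 scale. The residual SD over the 12 arrays was 0.58 for AS2, 0.37 for AGO7 and 0.19 for PHV, against medians of 0.47, 0.25 and 0.15 among the 1001 loci nearest in brightness to each. Signals of different probe sets cannot be read as relative transcript numbers.

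AGO7 gave the clearest response to Dex. Its signal on the mock arrays was 288, 386 and 324, and on the Dex arrays 67.0, 138.5 and 109. All 3 Dex arrays thus lay below all 3 mock arrays, with a mean of 105 ± 35.9 (SD, n = 3) against 333 ± 49.8, and the log2 means put Dex at 30.4% of mock. The log2 fold change was -1.72 (SE 0.29, 95% confidence interval -2.36 to -1.07), and adjusted p was 0.0103, so that AGO7 fell at the looser threshold and missed the stricter one narrowly. Of all loci, 2.09% had a more negative value. In this comparison 0.730% of loci were called lower at the stricter threshold, 3.13% were lower at the looser threshold and 12.9% had all Dex arrays below all mock arrays. A fit of the 6 mock and Dex arrays alone gave the same fold change with an adjusted p of 0.0735, and 4 other settings brought it under 0.01.

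With protein synthesis blocked, the AGO7 difference was smaller in the fit. The Cyc arrays read 213.5, 191 and 310, and the Dex+Cyc arrays 153, 163 and 114, so that the groups again did not overlap. The means were 238 ± 63.4 and 143 ± 25.6 (SD, n = 3), and the log2 fold change was -0.72 (SE 0.29, 95% confidence interval -1.36 to -0.07, adjusted p = 0.305), which passed neither threshold. In the comparison of Dex+Cyc with Cyc, 0.0929% of loci were called lower, 0.965% were lower at the looser threshold and 9.64% had groups apart in this direction. The difference between the AGO7 responses to Dex with and without Cyc was 1.00 (SE 0.41, 95% confidence interval 0.08 to 1.91) with an adjusted p of 0.571, so that the responses were not shown to differ. Across all loci only 0.00885% passed the stricter threshold and 0.0266% the looser one in that test of the difference.

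Averaged over both backgrounds, 6 arrays with Dex against 6 without, AGO7 fell by 1.22 on the log2 scale (SE 0.20, 95% confidence interval -1.67 to -0.76, adjusted p = 0.00663). It was the only one of the 3 genes called in the averaged Dex comparison, in which 0.770% of loci were called lower. The call was lost, with adjusted p of 0.0130 to 0.01999 and log2 fold changes of -1.29 to -1.11, when any one array other than Dex 1 or Dex 2 was left out. An exact two-sided permutation test within backgrounds, added after the values were seen, gave p = 0.005 over 400 arrangements, the smallest p this design allows. Permutation p-values here are not adjusted over loci. Any gene whose groups lie apart in the same direction in both backgrounds reaches the smallest one, and 3.91% of loci had groups apart in the lower direction in both. AGO7 stands in both of the study's lists of genes changed under Dex and under Dex+Cyc, made from the same RNA, so that these values are not independent evidence of its direction.

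AS2 differed in the same direction, but neither Dex comparison passed a threshold. The mock arrays read 37.5, 78.5 and 62.3, and the Dex arrays 58.0, 19.3 and 17.3. Dex 2 and Dex 3 lay below every mock array, while Dex 1 lay among them, and the groups overlapped. Means were 59.4 ± 20.7 and 31.5 ± 22.9 (SD, n = 3), and the log2 fold change was -1.08 (SE 0.44, 95% confidence interval -2.07 to -0.09, adjusted p = 0.219). Leaving out 1 array at a time moved it from -0.76 without Dex 3 (adjusted p = 0.494) to -1.63 without Dex 1 (adjusted p = 0.0282), the only one of these 6 fits under 0.05, and adding 32 to each signal before log2 gave -0.56 (adjusted p = 0.202). A more negative value was seen at 6.57% of loci.

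In the presence of Cyc, AS2 read 104, 142 and 127 without Dex and 76.3, 66.4 and 55.7 with it. Here the groups did not overlap, as at 9.64% of loci in this direction, with means of 124 ± 19.4 and 66.2 ± 10.3 (SD, n = 3). The log2 fold change of -0.91 (SE 0.44, 95% confidence interval -1.90 to 0.09) nevertheless had an adjusted p of 0.417 in the fit, and 7.24% of loci had a more negative value. AS2 is the gene from which the duplexes printed above were designed, and its locus was known here from a list of responding genes that the study made from the same RNA, which is not independent of these values. The averaged Dex effect was -0.99 (SE 0.31, 95% confidence interval -1.70 to -0.29, adjusted p = 0.0899) and the exact permutation p was 0.015. Leaving out the Dex 1 array brought this averaged value to -1.27 with an adjusted p of 0.00909, past the stricter threshold. The AS2 responses with and without Cyc differed by 0.17 (SE 0.63, 95% confidence interval -1.24 to 1.58, adjusted p = 0.976), an interval that leaves room for a difference in either direction.

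PHV had the smallest fitted difference of the 3 genes in both Dex comparisons. It read 1368, 932 and 1341 on the mock arrays and 922, 829 and 772 on the Dex arrays. The groups did not overlap, as at 12.9% of loci in this direction, but mock replicate 2 and Dex replicate 1 were nearly equal. Means were 1214 ± 245 and 841 ± 75.7 (SD, n = 3), and the log2 fold change was -0.51 (SE 0.16, 95% confidence interval -0.87 to -0.16, adjusted p = 0.104). Leaving out 1 array at a time moved it from -0.41 without mock replicate 1 (adjusted p = 0.276) to -0.69 without mock replicate 2 (adjusted p = 0.0192), the only one of these 6 fits under 0.05. More negative values were found at 16.8% of loci.

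Under Cyc the PHV signals were 913, 860 and 757 without Dex and 756, 695 and 753 with it, so that the highest Dex+Cyc array and the lowest Cyc array were nearly equal. The means of 843 ± 79.3 and 735 ± 34.5 (SD, n = 3) gave a log2 fold change of -0.20 (SE 0.16, 95% confidence interval -0.55 to 0.16, adjusted p = 0.668), with 26.1% of loci more negative. The averaged Dex effect was -0.35 (SE 0.11, 95% confidence interval -0.60 to -0.10, adjusted p = 0.0910). The exact permutation test reached its smallest p of 0.005, unadjusted, which follows from groups that lie apart in both comparisons and adds nothing to that. The responses with and without Cyc differed by 0.32 (SE 0.22, 95% confidence interval -0.19 to 0.82, adjusted p = 0.781).

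**Figure D1:**
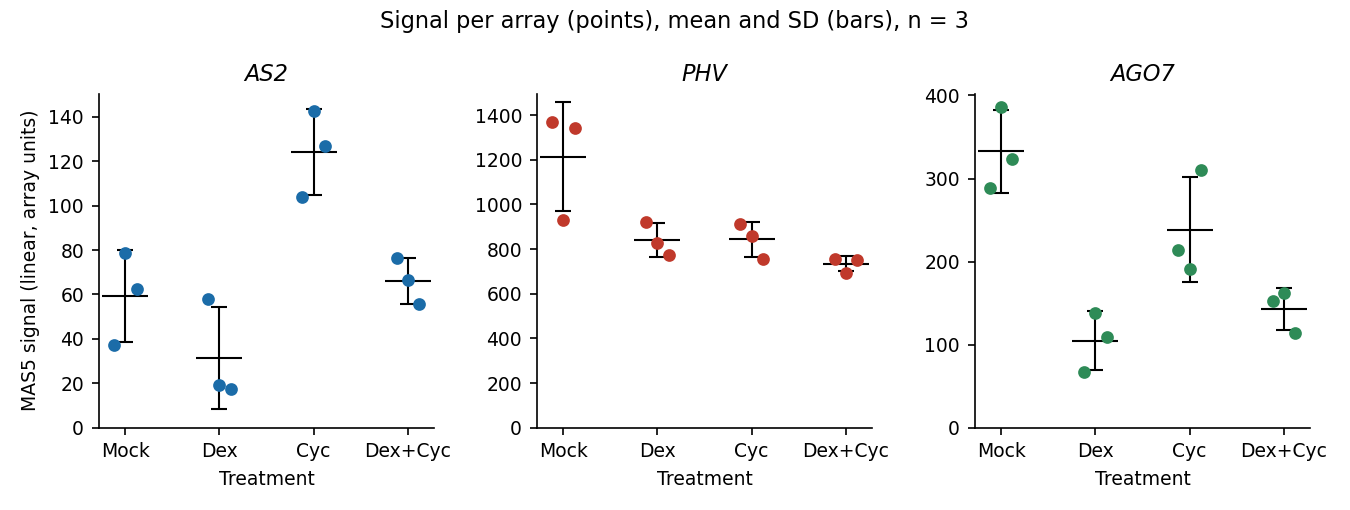
MAS5 signal (linear array units, each gene on its own axis from 0) of AS2, PHV and AGO7 on each of the 12 arrays by treatment, with points for arrays and bars for the mean and SD (n = 3). AGO7 is lower on all Dex arrays than on all mock arrays, AS2 is highest on the Cyc arrays, and PHV is highest on 2 of the mock arrays.

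All 3 genes therefore had negative fitted values in both Dex comparisons, where 50.6% of all loci were negative without Cyc and 46.3% with it. PHV and AGO7 had non-overlapping groups in both comparisons, as had 3.91% of loci in this direction. In bulk samples such as these, fewer cells of a type and less RNA per cell cannot be told apart.

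**Figure D2:**
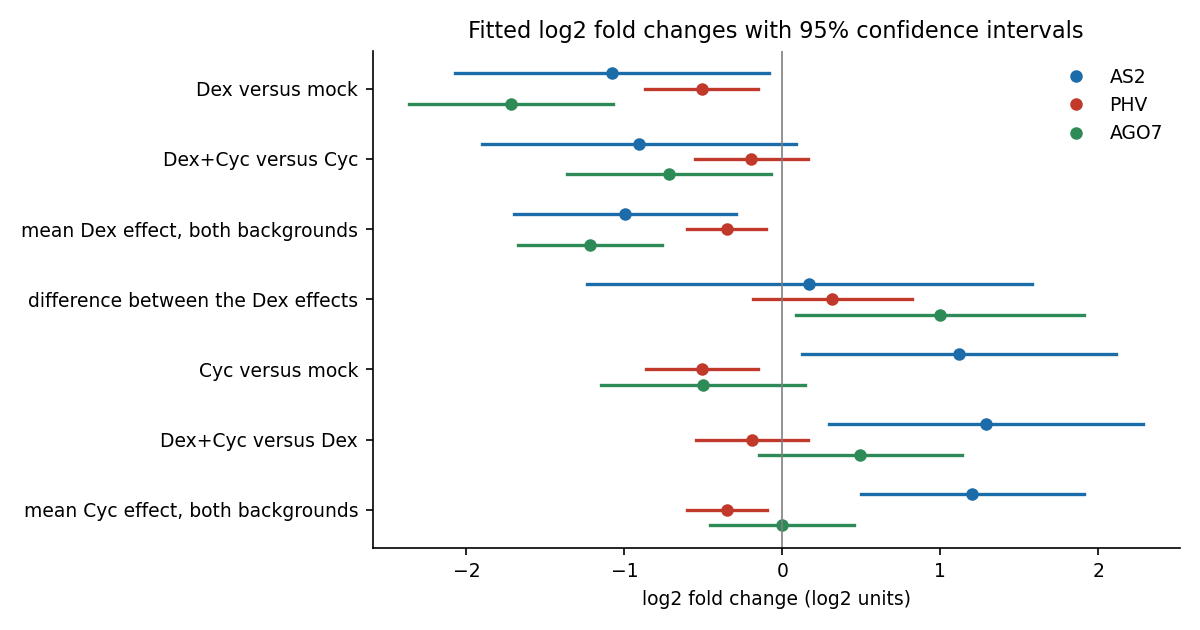
Fitted log2 fold changes (points) with 95% confidence intervals (lines) of the 3 genes in 7 comparisons from a single limma fit, with the grey line at no change. The intervals of AGO7 lie below 0 in both Dex comparisons, those of AS2 lie above 0 in the Cyc comparisons, and the intervals for the difference between the Dex effects include 0 for AS2 and PHV.

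Under Cyc without Dex the fitted value was positive for AS2 and negative for PHV and AGO7, and only PHV passed a threshold, the looser one. Cyc changed a large part of the transcriptome, and the median of all loci shifted by -0.18 between mock and Cyc, by -0.15 between Dex and Dex+Cyc and by -0.16 in the averaged Cyc comparison, so the values relative to that median are also given. Between mock and Cyc, 26.5% of loci were lower and 14.6% higher at the looser threshold, and 7.32% were called lower and 8.30% higher at the stricter one.

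AS2 was higher on every Cyc array than on every mock array, as were 18.2% of loci, and the log2 fold change was 1.12 (SE 0.44, 95% confidence interval 0.12 to 2.11, adjusted p = 0.0713), or 1.30 relative to the median locus. With Dex present in both groups it was 1.29 (SE 0.44, adjusted p = 0.0430), or 1.44 relative to the median locus, a rise at the looser threshold, which 15.1% of loci also showed. That pass was kept in 1 of 6 fits with an array left out, the one without Dex 1, and in 4 of 8 other settings, with adjusted p up to 0.145 and 0.106. In the averaged Cyc comparison, added after the values were seen, AS2 rose by 1.20 (SE 0.31, 95% confidence interval 0.50 to 1.91, adjusted p = 0.00916), a 2.30-fold increase, or 1.36 relative to the median locus, and 9.20% of loci were called higher. This call was lost, with adjusted p of 0.0144 to 0.0239, when any one array other than Mock 2 or Dex 1 was left out.

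PHV fell under Cyc at the looser threshold, by 0.51 on the log2 scale (SE 0.16, adjusted p = 0.0275), or -0.32 relative to the median locus, and its groups did not overlap, as at 31.9% of loci. The pass was lost without Mock 1, Mock 3, Cyc 2 or Cyc 3 (adjusted p = 0.0590 to 0.0960) and with only the 6 arrays compared (adjusted p = 0.109). With Dex present the value was -0.19 (SE 0.16, adjusted p = 0.386), -0.043 relative to the median locus, and averaged over both backgrounds PHV fell by 0.35 (SE 0.11, adjusted p = 0.0250), as did 32.3% of loci at that threshold, or -0.19 relative to the median locus. This averaged pass was lost without Mock 1, Mock 3, Dex 1, Cyc 3 or Dex+Cyc 2 (adjusted p = 0.0553 to 0.0605) and with quantile normalization (adjusted p = 0.0504). The lowest PHV group was Dex+Cyc, which fell by 0.70 against mock (SE 0.16, 95% confidence interval -1.06 to -0.35, adjusted p = 0.00594) and stayed under 2-fold, while 24.2% of loci were lower at the looser threshold.

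AGO7 had values of opposite sign for Cyc in the 2 backgrounds, -0.50 (SE 0.29, adjusted p = 0.202) without Dex and 0.49 (SE 0.29, adjusted p = 0.212) with it, and neither passed a threshold. Relative to the median locus they were -0.32 and 0.64. Their mean was -0.00 (SE 0.20, 95% confidence interval -0.46 to 0.45, adjusted p = 0.989), or 0.15 relative to the median locus. Against mock, the Dex+Cyc level of AGO7 fell by 1.22 (SE 0.29, adjusted p = 0.00752), a call shared by 6.33% of loci. This call was lost without any one of the 6 arrays compared, with adjusted p of 0.0146 to 0.0300.

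The order of the 4 levels differed between the genes. AS2 ran from Cyc through Dex+Cyc and mock to Dex, and no pair of neighbours passed a threshold (adjusted p = 0.417, 0.764 and 0.219 down the order), although the ends, Cyc and Dex, differed by 2.20 on the log2 scale (adjusted p = 0.00285), where 9.03% of loci were called lower in Dex than in Cyc. PHV ran from mock through Cyc and Dex to Dex+Cyc, where mock and Cyc differed at the looser threshold (adjusted p = 0.0275) and the next pairs did not (adjusted p = 0.989 and 0.386). AGO7 ran from mock through Cyc and Dex+Cyc to Dex, with no pair of neighbours past a threshold (adjusted p = 0.202, 0.305 and 0.212). The AS2 call between Dex and Cyc was lost without Dex 2, Dex 3, Cyc 2 or Cyc 3 (adjusted p = 0.0110 to 0.0132).

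Ratios within an array, which no scaling of arrays can change, were computed after the values were seen and carry no test. The log2 ratio of PHV to AGO7 was 1.27 to 2.25 on the mock arrays and 2.58 to 3.78 on the Dex arrays, so that these groups did not overlap and AGO7 was lower relative to PHV on every Dex array. Under Cyc the ratio was 1.29 to 2.17 without Dex and 2.095 to 2.72 with it, and the ranges overlapped. The log2 ratio of AS2 to PHV was -5.19 to -3.57 in mock, -5.48 to -3.99 in Dex, -3.14 to -2.58 in Cyc and -3.76 to -3.31 in Dex+Cyc. AS2 was therefore higher relative to PHV on every Cyc array than on any other array, while mock and Dex overlapped. The ratio of AS2 to AGO7 had means of -2.54, -1.90, -0.92 and -1.11 in mock, Dex, Cyc and Dex+Cyc.

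Likeness of pattern was taken as the root mean square difference between centred log2 means over the 4 groups (12 arrays), among 1724 named loci of the brighter 60% by mean signal. Among the members the differences were 0.84 between AS2 and PHV, 0.65 between AS2 and AGO7 and 0.50 between PHV and AGO7. The usual difference between a pair of loci was not computed. The nearest loci below are the smallest among all candidates and give no measure of it. The loci nearest to AS2 were GGP1 (0.085), RLP30 (0.14), AGK2 (0.14), WRKY7 (0.15) and PYL4 (0.16). Those nearest to PHV were MS3 (0.017), PPR596 (0.027), XF1 (0.049), HSP60-2 (0.058) and ILA (0.059), and those nearest to AGO7 were PLA2-ALPHA (0.13), BRG2 (0.13), TCP14 (0.15), CLE41 (0.16) and HAM3 (0.16). Each distance to a nearest locus lay below the SE of a difference between groups of that member, 0.44 for AS2, 0.16 for PHV and 0.29 for AGO7. Whether the nearest loci can be ranked was not tested. AS2 itself, with 34.4% of loci dimmer by mean, lay outside the brighter 60%.

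Other genes of leaf polarity were compared with these members. Of 17 listed, 9 could be read: KAN1, KAN2 and KAN3 (KANADI factors of the abaxial side), FIL, YAB3, YAB5 and INO (YABBY factors, abaxial in lateral organs, INO in the ovule), ARF4 (the abaxial factor restricted by the AGO7 pathway) and KNAT1 (a class I KNOX gene of the meristem and stem, on which AS1 and AS2 act in leaves). AS1, PHB, REV, AGO1, AGO10 and ARF3 were not analysed here. KAN1, ARF4 and KNAT1 owe their locus here to the study's own lists of responding genes, made from the same RNA, so that their direction is not independent evidence.

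Without Cyc, 9 of 9 had negative values under Dex and groups that did not overlap, with a median of -1.04 and a range of -1.97 to -0.45 beside a median of -0.01 for all loci. At the looser threshold 7 of the 9 fell, and 2 of them were called at the stricter one. Over all loci, 12.9% had groups apart in this direction, 3.13% fell at the looser threshold and 0.730% were called lower. Of the 6 genes that did not owe their locus to the lists of responding genes, 4 fell at the looser threshold and 1 was called, with a median of -1.02. Leaving out any one of the 6 arrays compared brought the 7 down to between 3 and 5, and KNAT1 lost its call without Dex 2, Dex 3, Mock 1 or Mock 3, while KAN2 kept it throughout. The called genes were KNAT1 (-1.77, SE 0.21, adjusted p = 0.00236) and KAN2 (-1.37, SE 0.13, adjusted p = 0.00136). KAN1, KAN3, YAB3, FIL and ARF4 fell at the looser threshold, while YAB5 (-0.67, adjusted p = 0.0503) and INO (-1.97, adjusted p = 0.184) did not pass it. ARF4 fell by 0.85 (SE 0.12, adjusted p = 0.00458), under 2-fold, on the arrays where AGO7 fell by 1.72.

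With Cyc, 9 of 9 values were negative with a median of -0.82 beside 0.03 for all loci, 6 had groups apart, and 3 fell at the looser threshold, KAN2 (-0.84, adjusted p = 0.0191), ARF4 (-0.59, adjusted p = 0.0427) and KNAT1 (-1.59, adjusted p = 0.0121). The smallest adjusted p of the 9, that of KNAT1, lay above the stricter threshold. Over all loci, 9.64% had groups apart in this direction, 0.965% fell at the looser threshold and 0.0929% were called lower. With 1 array left out, 1 to 3 of the 9 fell. KNAT1 passed in each of these fits, KAN2 only without Cyc 1, Dex+Cyc 1 or Dex+Cyc 2, and ARF4 in none. Of the 6 genes that did not owe their locus to those lists, 1 fell at the looser threshold, and their values ran from -0.87 to -0.09. The adaxial genes and these mostly abaxial genes thus had values of the same sign, and the members were not shown to differ from this list, since no test of that difference was made.

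**Figure D3:**
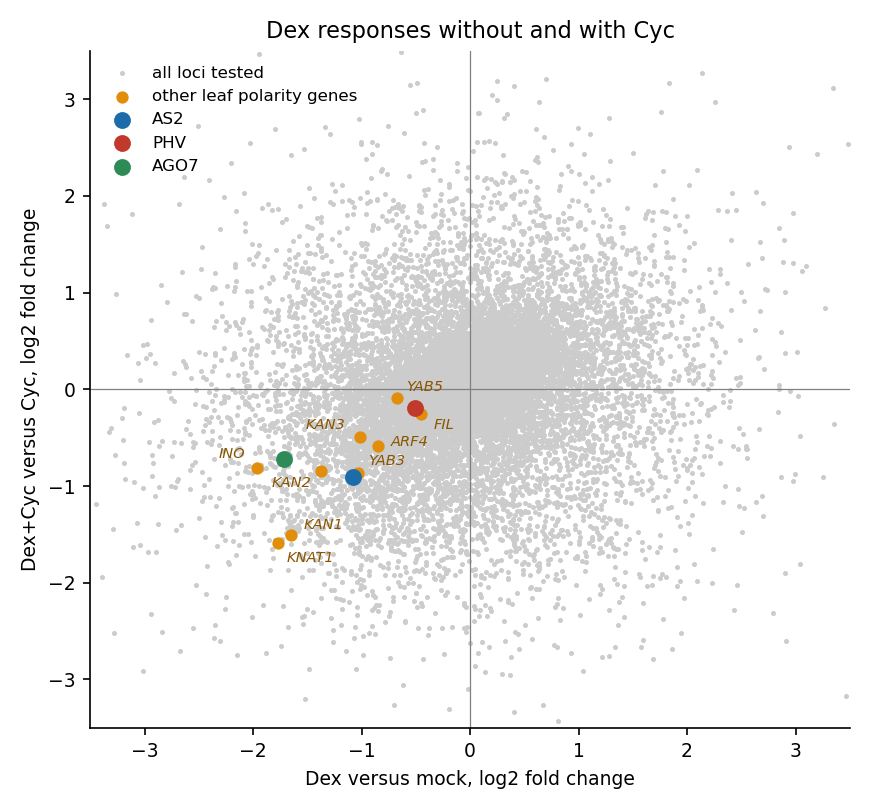
Log2 fold change of Dex versus mock (horizontal) against that of Dex+Cyc versus Cyc (vertical), comparisons that share no array, for the 22596 loci tested (grey), 9 other leaf polarity genes (orange) and AS2, PHV and AGO7. The 3 members and the 9 other genes lie in the lower left, with negative values on both axes, and 17 loci fall outside the plotted window of 3.5 log2 units on either side of 0.

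The families of the members were poorly covered. In the AS2/LOB family 5 of 40 genes could be read, and 2 of these, LBD21 and LBD37, owed their locus to the study's lists of responding genes. Under Dex without Cyc, LBD21 (-1.69, adjusted p = 0.00296) was called lower and LBD18 (-0.91, adjusted p = 0.00236) fell at the looser threshold only, being under 2-fold. LBD37 was called higher (1.98, adjusted p = 0.000443), and LBD16 (-0.96, adjusted p = 0.534) and LBD29 (0.98, adjusted p = 0.299) did not pass. The LBD21 call was lost without Dex 3 or any one mock array (adjusted p = 0.0114 to 0.0157). For comparison, 102 of the 22596 loci were called higher without Cyc, and 2.15% were higher at the looser threshold. In the other direction 0.730% were called lower and 3.13% were lower at the looser threshold. With Cyc present, LBD21 fell by 1.43 (adjusted p = 0.0160) at the looser threshold, as did 0.965% of loci, and the other 4 did not pass. In fits with 1 array left out, LBD21 kept that pass only without Cyc 1, Dex+Cyc 1 or Dex+Cyc 2.

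Of 8 genes of the HD-ZIP III and LITTLE ZIPPER group, which includes the small inhibitors of HD-ZIP III proteins, 1 could be read besides PHV. This was ZPR1, with log2 fold changes of 0.42 under Dex both without Cyc (adjusted p = 0.757) and with it (adjusted p = 0.819). Of 18 small RNA and ARGONAUTE genes 4 could be read besides AGO7, namely AGO8, AGO9, the dicer gene DCL4 and SE, and the smallest adjusted p among them in a Dex comparison was 0.193, for AGO8 without Cyc (-2.36, groups overlapping). Without Dex 2, AGO8 was called lower (-3.63, adjusted p = 0.00910).

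**Figure D4:**
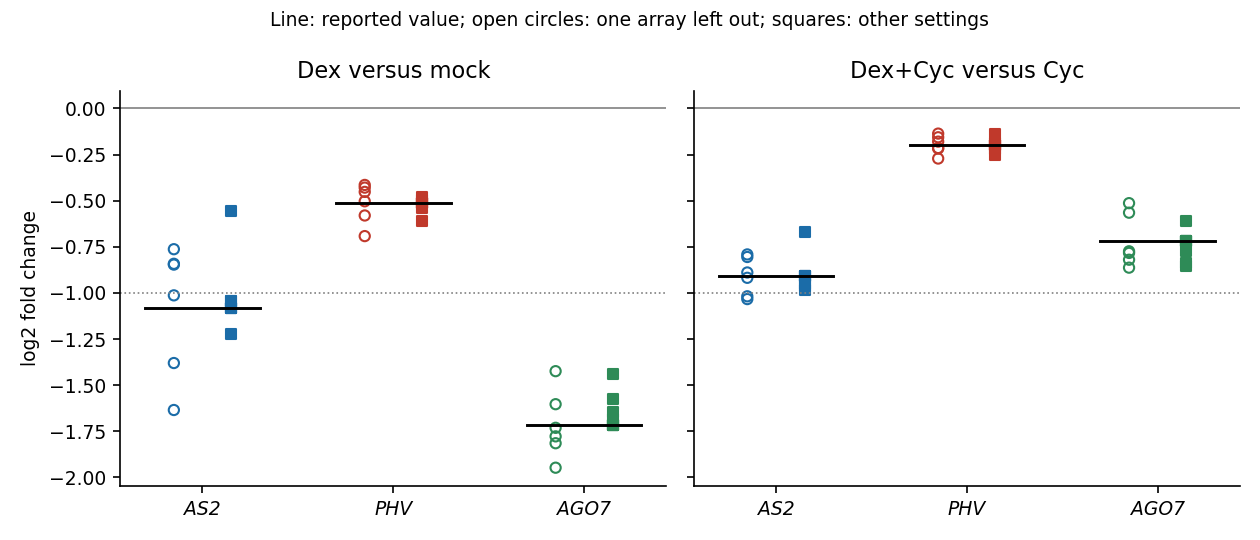
Log2 fold changes of the 3 genes under Dex without Cyc (left) and with Cyc (right), with black lines for the reported values, open circles for fits with 1 array left out, squares for other settings and a dotted line at a 2-fold decrease. All values are below 0, and the widest spread is that of AS2 without Cyc.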

How the data were processed

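RNA of 12 samples was hybridised to Affymetrix ATH1 arrays. The authors deposited linear MAS5 intensity values, made with the affy package per the labels, and each array was scaled to a trimmed mean of 500 (2% removed at each end). The study's own tests were run on GCRMA values (not used here). The 64 control probe sets among 22810 were dropped. The platform annotation gave 1 gene for 13513 probe sets, several for 503 and did not list 8730, and 14500 had a locus here, some through the study's supplementary tables. The probe set with the highest mean stood for each locus, without a filter on dim values. Probe sets without a locus here were kept singly, and the 22596 loci tested include them, also in every percentage of loci. The number of arrays limits the precision. Signals were log2-transformed and fitted in limma 3.58.1 (R 4.3.3; lmFit, contrasts.fit, eBayes) with 4 group means, and p-values were Benjamini-Hochberg adjusted over all loci. Exact permutations used Python 3.11.15 with numpy 2.4.6. The script was tested on simulated data. Alternatives were quantile normalization, median centring, an added 32 before log2, leaving out the dimmest 40%, a replicate block, weights per array, robust shrinkage with a variance trend, keeping all probe sets, only the 6 arrays compared and leaving out each array. Differences are reported as log2 values. The named genes were the 3 members, listed genes past adjusted p under 0.05 in a Dex comparison or closely related to a member, others given for their list's counts, and the 5 nearest loci in pattern. Counts at the looser threshold under each setting, and lists without genes named by the changed-gene lists, were added after the values were seen. The members and lists were chosen with earlier results of these data known.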

Additional observations from a re-analysis of the deposited data

How the results depend on the processing

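In the Dex comparisons of AS2, PHV and AGO7, without Cyc, with Cyc and averaged, every fitted value stayed negative under all alternatives run. AGO7 under Dex passed the stricter threshold with 32 added before log2 (-1.44, adjusted p = 0.00215), without the dimmest 40% (-1.72, 0.000806), with a variance trend and robust shrinkage (-1.72, 0.000336) and with array weights (-1.64, 0.00884). At adjusted p under 0.05 with no fold threshold, the comparisons gained were AGO7 under Dex (-1.72), AS2 for Dex+Cyc versus Dex (1.29) and PHV for Cyc versus mock (-0.51), Dex+Cyc versus mock (-0.70) and the averaged Cyc effect (-0.35). Calls were lost for the averaged Cyc effect of AS2 with quantile normalization (0.97, adjusted p = 0.0235), median centring (1.16, 0.0102) and 32 added (0.74, 0.00218, under 2-fold), for AGO7 in Dex versus Cyc with quantile normalization (-1.10), median centring (-1.18), 32 added (-0.99) and only the 6 arrays compared (-1.21), and for AS2 in Dex versus Cyc with only the 6 arrays compared (-2.20, adjusted p = 0.0215). Values near 0 changed sign for the AS2 difference between the Dex effects with 32 added (-0.11), AS2 in Dex+Cyc versus mock with quantile normalization (-0.044), PHV in Dex versus Cyc with median centring (0.026) and array weights (0.027), and the averaged Cyc effect of AGO7 with array weights (0.034). The cause was not tested.

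Leaving out 1 array at a time gave ranges of -0.15 to 0.73 for the AS2 difference between the Dex effects, -1.27 to -0.84 for its averaged Dex effect, 0.97 to 1.84 for Dex+Cyc versus Dex, -2.75 to -1.88 for Dex versus Cyc, -0.092 to 0.44 for Dex+Cyc versus mock and 1.04 to 1.48 for its averaged Cyc effect. For PHV, Dex versus Cyc ranged from -0.079 to 0.056. For AGO7 the averaged Dex effect ranged from -1.33 to -1.07, Dex versus Cyc from -1.44 to -0.92, Dex+Cyc versus mock from -1.32 to -1.07 and the averaged Cyc effect from -0.15 to 0.11. The AS2 rise in Dex+Cyc versus Dex reached the stricter threshold without Dex 1 (1.84, adjusted p = 0.00188) and missed the looser one in the other 5 fits (adjusted p = 0.0648 to 0.145). Under Dex without Cyc, the ranges were -1.63 to -0.76 for AS2, -0.69 to -0.41 for PHV and -1.95 to -1.42 for AGO7.

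Whether replicate numbers pair the samples was not tested. Deviations of same-numbered arrays correlated at -0.09 to 0.25, above 0.1 in 3 of 18 pairs, and those of differently numbered arrays at -0.23 to 0.18. Of the 12 arrays, 7 correlated best with an array of their own number. With the replicate number as a block, calls were lost for the averaged Dex effect of AGO7 (-1.22, adjusted p = 0.0157), for AGO7 in Dex versus Cyc (-1.21, 0.0112) and Dex+Cyc versus mock (-1.22, 0.0123), and for the averaged Cyc effect of AS2 (1.20, 0.0204), and no other call of the 3 genes changed at the stricter threshold. At the looser one, the AS2 rise in Dex+Cyc versus Dex was lost with the block (1.29, adjusted p = 0.0717). AS2 was not tested when the dimmest 40% were left out, since 34.4% of loci were dimmer by mean, and a fit of only the 6 arrays compared does not exist for the difference or the averages. Precision was set by 3 arrays a group and was lowest for the dim AS2 probe set, with a standard error of 0.44 for a difference between groups against 0.29 for AGO7 and 0.16 for PHV.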
